A study of Mus musculus with 69 samples.

Results

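Livers of mice given the high oral dose of acetaminophen (APAP, a common analgesic that is toxic to liver when overdosed) were compared with livers of mice given the medium dose, both taken 1 day after dosing. The arrays were chosen by the dose and day in their titles, which gave 5 high-dose mice (300 mg/kg) and 5 medium-dose mice (225 mg/kg), 10 of the 69 arrays of the series. Both groups were male C57BL/6 mice, 10 weeks old, that received a single gavage. The vehicle mice (n = 5) of the same day serve as the level to which treated livers are set. The low-dose mice (168.75 mg/kg, n = 5) are shown for the component scores, the distance from vehicle, Junb and the neutrophil list. Each array measured RNA of 1 mouse, from the middle part of the left lateral lobe, as log2 signal for 17306 probe sets, 1 per gene. A difference of 1 log2 unit is a doubling. Mice are numbered 1 to 5 within a dose, in the order of the deposited records, and the numbers carry no other meaning.

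Most APAP is conjugated to glucuronic acid or sulfate and leaves the liver, and a part is oxidised by cytochromes P450, above all CYP2E1, to a reactive quinone imine. Hepatocytes around the central vein hold the most of these enzymes. Glutathione traps the quinone imine, and once glutathione runs out it binds proteins, mitochondria fail and pericentral hepatocytes die. Livers exposed to the quinone imine can switch on antioxidant genes through the factor NRF2. Factors such as ATF4 can switch on amino acid and protein folding stress genes. Livers with dying cells also switch on immediate early genes and chemokines, and neutrophils and monocytes enter.

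The mice did not fall into groups by dose. The first principal component of the 20 arrays of vehicle, low, medium and high dose held 66.3% of their variance and ran away from vehicle. Vehicle arrays scored -23.6, -22.5, -26.8, -21.6 and -20.8. Low-dose arrays scored 46.3 in mouse 1 and -21.8, -22.0, -21.4 and -18.5 in the others. Medium-dose arrays scored -4.0, -22.1, -11.0, 49.5 and -0.3, and high-dose arrays scored -25.4, 54.5, 52.99, -0.9 and 59.3. Thus high-dose mice 2, 3 and 5, medium-dose mouse 4 and low-dose mouse 1 stood far from vehicle, while high-dose mouse 1 and medium-dose mouse 2 lay among or beside the vehicle mice. The mean score was 28.1 ± 38.7 at the high dose and 2.43 ± 27.6 at the medium dose (SD, n = 5 each). The difference of 25.7 was smaller than either SD, and a two-sided exact permutation test over the 252 regroupings gave p = 0.286, where the smallest p possible is 0.00794.

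**Figure D1:**
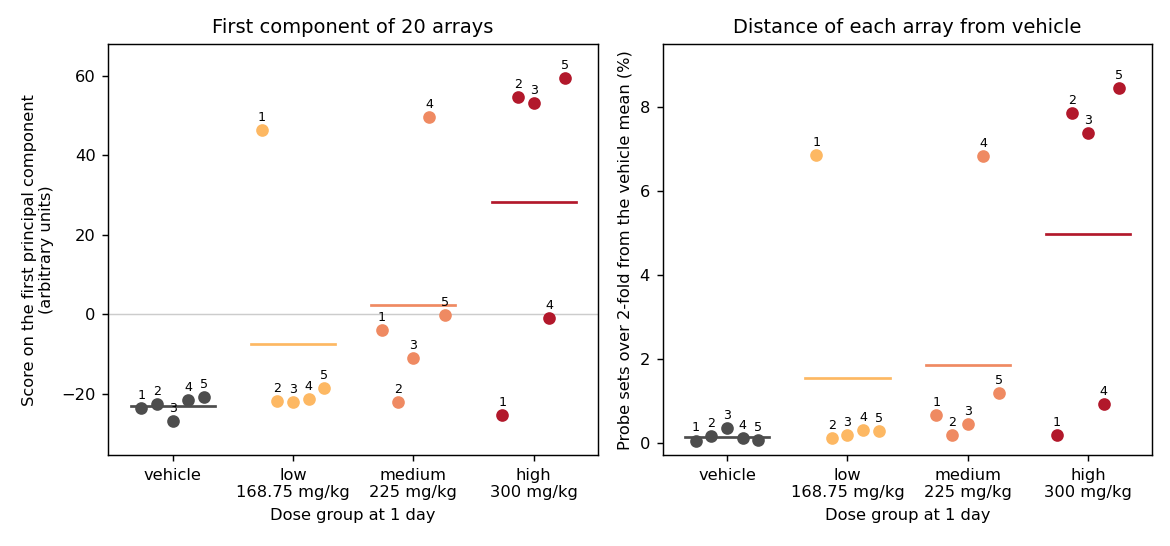
Each point is 1 mouse, numbered within its dose group, with the score on the first component (arbitrary units, left) and the percent of probe sets over 2-fold from the vehicle mean (right) on the vertical axes and the dose group on the horizontal axis; bars are group means. The share was 7.86%, 7.39% and 8.45% in high-dose mice 2, 3 and 5 and 0.191% in high-dose mouse 1, against 6.83% in medium-dose mouse 4.

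The share of probe sets over 2-fold from the vehicle mean showed the same spread within a dose. It was 0.191%, 7.86%, 7.39%, 0.919% and 8.45% in the 5 high-dose mice, against 0.659%, 0.173%, 0.439%, 6.83% and 1.18% in the 5 medium-dose mice. The 5 vehicle mice, each set against the mean of the other vehicle mice, had 0.052% to 0.341%. High-dose mouse 1 was therefore as close to vehicle as a vehicle mouse, and medium-dose mouse 4 was nearly as far from it as high-dose mice 2, 3 and 5. The labels give no measure of injury for any mouse. Whether this contrast sets overt injury against adaptation was therefore not tested. Both doses held livers close to vehicle and livers far from it, and the groups are called by their dose here. Albumin (Alb), the main secreted protein of hepatocytes, was among the brightest genes in all 10 livers, between 13.83 and 14.29 log2 units.

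With this spread, limma called 0 of 17306 probe sets between the doses at an adjusted p under 0.05 (0% of those tested), and the smallest adjusted p was 0.789. At an unadjusted p under 0.05 there were 741 probe sets (4.28% of those tested), 273 higher (1.58%) and 468 lower (2.7%) at the high dose, which is no more than that threshold passes by itself. 2 other fits made calls. A fit that shares 1 spread among all 69 arrays called 19 probe sets (0.11%). A fit that weights each array by how well it matches its own dose group called 2778 (16.1%). Every gene described below is therefore given by its values in each mouse, its difference or both, and none passed the test in the 10 arrays. Errors after a difference are limma's standard errors (SE), and p-values set a difference against the spread between these mice only.

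**Figure D2:**
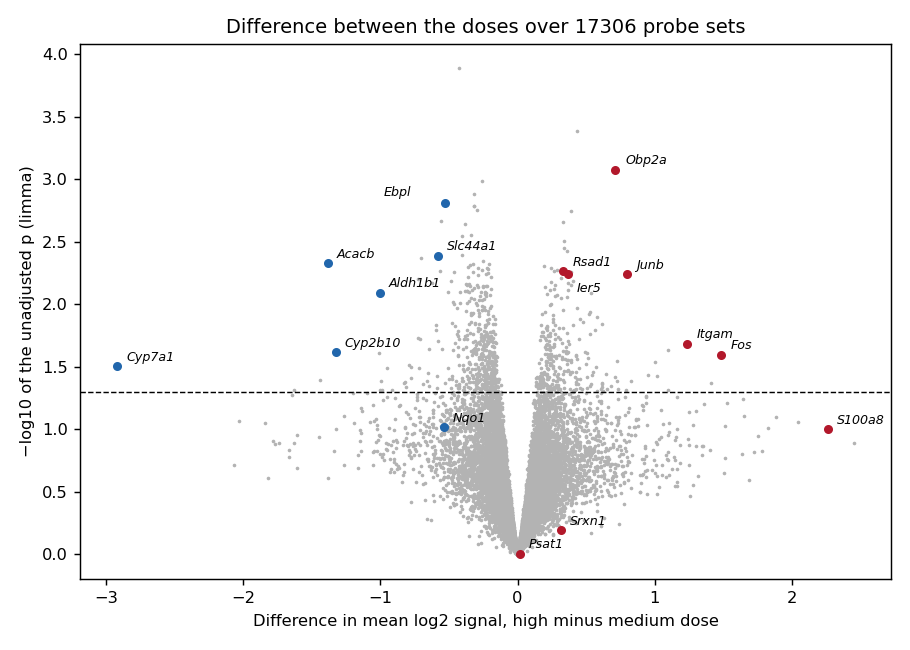
Each point is 1 probe set, with the difference in mean log2 signal (high minus medium dose) on the horizontal axis and −log10 of limma's unadjusted p on the vertical axis; the dashed line marks an unadjusted p of 0.05 and coloured points are genes named in the text. Cyp7a1 had the largest difference downward, -2.92 log2 units, and no probe set passed after adjustment.

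Differences over 1 log2 unit were seen in 0.728% of probe sets, 73 higher (0.422%) and 53 lower (0.306%) at the high dose. The 5 high-dose mice all lay above the 5 medium-dose mice in 26 probe sets (0.15%) and all below them in 62 (0.358%). Together these are 88 probe sets (0.508%), no more than regroupings of the same 10 mice give, so a gene without overlap is described below and not read as a difference between the doses. Over all probe sets the mean was higher at the high dose in 45.3%, and the median difference was -0.02, which is the background for the lists below. The SD between mice was larger at the high dose in 56.3% of probe sets, and it exceeded 1 log2 unit in 316 probe sets at the high dose and 156 at the medium dose, against 17 in vehicle mice.

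Immediate early genes, transcription factors and feedback regulators switched on within minutes of a stimulus without new protein synthesis, leaned furthest to the high dose of all lists. All 22 measured members had a higher mean at the high dose, with a median difference of 0.69, and 5 had an unadjusted p under 0.05, all higher (background 1.58%). Junb, a subunit of the AP-1 transcription factor, was 1 of the 26 probe sets (0.15%) with all high-dose mice above all medium-dose mice. It had 5.35, 5.83, 6.52, 5.47 and 6.24 at the high dose, against 5.25, 4.62, 5.03, 5.20 and 5.33 at the medium dose. Every high-dose mouse lay above every medium-dose mouse and every vehicle mouse, also the high-dose mouse 1 that was close to vehicle in most genes, although that mouse was only just above the highest vehicle mouse, at 5.33. The difference was 0.80 ± 0.23 (SE). The low-dose mice had 6.07, 4.43, 5.47, 5.00 and 5.29. Low-dose mice 1 and 3 thus also lay above every medium-dose mouse, and above high-dose mouse 1.

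Fos, the partner of JUN proteins in AP-1, had 5.37, 6.52, 7.38, 7.06 and 7.41 at the high dose, against 5.74, 3.73, 4.35, 6.52 and 5.96 at the medium dose. High-dose mice 3, 4 and 5 lay above all medium-dose mice, and mice 1 and 2 fell within their range. The difference was 1.48 ± 0.57 (SE), and vehicle mice spread from 3.40 to 5.77. Ier5, an immediate early regulator of the heat shock response, had 3.57, 3.92, 4.01, 3.75 and 4.01 at the high dose, against 3.44, 3.39, 3.47, 3.74 and 3.40 at the medium dose, so that only high-dose mouse 1 was below the highest medium-dose mouse, mouse 4. Its difference was 0.37 ± 0.11 (SE), and its signal was dim, with means of 3.85 and 3.49 below the array medians of 4.41 to 4.57. Ier3, a short-lived survival regulator induced by NF-kappa-B, had 5.22, 8.08, 8.42, 5.41 and 8.82 at the high dose, against 5.14, 4.99, 5.39, 7.17 and 5.03 at the medium dose. High-dose mice 2, 3 and 5 were the highest, medium-dose mouse 4 came next, and all 10 mice were above the highest vehicle mouse, at 4.95.

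Egr1, a zinc finger factor induced by growth signals and injury, showed another pattern. It had 9.19, 8.44, 9.68, 9.01 and 9.37 at the high dose, against 9.16, 6.11, 7.02, 8.49 and 9.40 at the medium dose. The 5 high-dose mice lay within or near the vehicle range of 7.60 to 9.42, and medium-dose mice 2 and 3 were below every vehicle mouse. The difference was 1.10 ± 0.59 (SE). Jund, an AP-1 subunit with high basal activity, differed by 0.19 ± 0.08 (SE).

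The start regions of Junb and Fos are shown because Junb had no overlap between the doses and Fos encodes its AP-1 partner. Each window, from RefSeq on GRCm38.p6, runs from 250 bases before the gene's start to 50 bases after it, and is written on the gene's own strand. Capitals mark TGACG, the core of the element bound by CREB and ATF factors, read on either strand. Junb lies at chr8:84978699-84978998 on the minus strand and Fos at chr12:85473640-85473939 on the plus strand.
Junb: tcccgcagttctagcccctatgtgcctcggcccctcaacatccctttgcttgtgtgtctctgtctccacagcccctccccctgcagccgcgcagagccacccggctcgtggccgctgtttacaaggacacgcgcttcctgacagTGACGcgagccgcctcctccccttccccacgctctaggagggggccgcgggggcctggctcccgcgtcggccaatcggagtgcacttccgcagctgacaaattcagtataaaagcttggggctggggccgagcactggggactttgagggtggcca
Fos: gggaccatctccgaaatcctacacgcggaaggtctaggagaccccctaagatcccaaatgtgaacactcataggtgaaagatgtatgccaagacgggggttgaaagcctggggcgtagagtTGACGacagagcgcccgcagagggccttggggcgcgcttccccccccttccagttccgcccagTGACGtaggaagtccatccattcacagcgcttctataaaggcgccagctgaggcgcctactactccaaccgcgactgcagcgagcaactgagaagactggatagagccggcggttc
The Junb window holds TGACG 1 time and the Fos window 2 times. Of the 22 immediate early genes measured, 17 had a window in the table and 10 of these (58.8%) held TGACG on at least 1 strand, against 4006 of the 13162 measured genes with a window (30.4%). The CArG box, the element of serum response factor, was searched on both strands too and lay in 2 of the 17 windows, those of Egr2 and Zfp36, against 213 of 13162 (1.6%). The motifs share no bases in these 2 windows, where the CArG box was not found. Bases outside the windows were not searched, and Egr1 had no window to search. These are matches of letters, and binding was not measured.

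Markers of the white cells that enter injured liver also leaned to the high dose. In a piece of whole liver, fewer cells of a type and less RNA per cell cannot be told apart. Of 15 neutrophil markers measured, 13 had a higher mean at the high dose, with a median difference of 0.46. An unadjusted p under 0.05 was seen in 2, both higher (background 1.58%). They were Il1r2 and Mmp9, which are not among the markers described below. The list's median in each mouse, taken from the vehicle mean, was -0.07, 1.49, 0.73, 0.85 and 1.11 at the high dose, against 0.14, -0.16, 0.25, 0.24 and 0.00 at the medium dose. High-dose mouse 1 was in the range of the medium-dose mice and the other 4 high-dose mice were above all of them, medium-dose mouse 4 included. The low-dose mice had 1.06, -0.03, -0.09, -0.05 and 0.01, so low-dose mouse 1 was also above every medium-dose mouse.

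S100a8, a subunit of the neutrophil protein calprotectin, had 4.08, 10.22, 9.32, 7.83 and 10.06 at the high dose, against 4.94, 3.59, 7.18, 8.56 and 5.93 at the medium dose. High-dose mice 2, 3 and 5 exceeded all medium-dose mice, high-dose mouse 4 was between medium-dose mice 3 and 4, and mouse 1 was near the vehicle mean of 4.03. The difference of 2.26 ± 1.25 (SE) was large and its 95% confidence interval, -0.52 to 5.04, held 0. S100a9, its partner, differed by 2.05 ± 1.08 (SE). Cxcr2, the receptor through which neutrophils follow chemokines, had 4.70, 7.52, 7.05, 5.89 and 7.62 at the high dose, against 5.06, 4.95, 5.61, 6.31 and 5.03 at the medium dose. The highest vehicle mouse, at 5.71, was exceeded by high-dose mice 2 to 5 and by medium-dose mouse 4.

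Ligands of that receptor leaned the same way. Cxcl1, a neutrophil chemokine made by hepatocytes and stromal cells, had 7.81, 9.94, 10.75, 9.30 and 10.34 at the high dose, against 8.19, 7.97, 9.01, 9.02 and 8.46 at the medium dose, a difference of 1.10 ± 0.49 (SE). High-dose mice 2 to 5 lay above all 5 medium-dose mice, and mouse 1 lay below all of them. Ppbp, a chemokine stored in platelets, had 3.34, 6.40, 5.93, 5.70 and 6.26 at the high dose, against 3.38, 3.25, 5.39, 4.74 and 3.80 at the medium dose, a difference of 1.41 ± 0.61 (SE). High-dose mice 2 to 5 were again above all medium-dose mice.

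Of 16 monocyte and macrophage markers, 15 had a higher mean at the high dose, with a median difference of 0.41. Itgam, the CD11b integrin chain of neutrophils and monocytes, had 3.27, 5.58, 5.08, 3.87 and 5.86 at the high dose, against 3.21, 3.33, 3.46, 3.92 and 3.56 at the medium dose, a difference of 1.24 ± 0.45 (SE). The same 3 high-dose mice, 2, 3 and 5, stood more than 1 log2 unit above medium-dose mouse 4, although that mouse matched them in much of the array, as the component score shows. Itgam was 1 of the 19 genes (0.11% of probe sets) called when all 69 arrays shared the spread (adjusted p = 0.0424, limma). Ccl2, the chemokine that draws monocytes, had 3.27, 8.39, 7.55, 4.62 and 7.87 at the high dose, against 4.04, 3.04, 4.71, 7.49 and 3.81 at the medium dose, and there medium-dose mouse 4 was close to high-dose mice 2, 3 and 5. Its difference was 1.72 ± 1.11 (SE). Cd14, a receptor for bacterial lipopolysaccharide, had 4.96, 8.79, 8.28, 6.62 and 8.72 at the high dose, against 6.52, 5.05, 6.02, 7.89 and 6.16 at the medium dose. F13a1, the coagulation factor XIII subunit that marks monocytes and some macrophages, differed by 1.89 ± 0.97 (SE).

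Markers of Kupffer cells and lymphocytes mostly had lower means at the high dose. Of 14 Kupffer cell markers, 2 had a higher mean at the high dose, 1 of them by 1.16, and the median difference was -0.08. Among other resident cells, stellate cell and matrix genes had a higher mean in 18 of 21 members (median 0.28) and endothelial markers in 10 of 18 (0.08). Clec4f, the lectin of resident Kupffer cells, had 8.54, 8.54, 8.19, 9.21 and 8.26 at the high dose, against 8.71, 8.52, 9.39, 8.22 and 9.39 at the medium dose, and Timd4, their receptor for dead cells, had 5.47, 5.55, 5.32, 6.14 and 5.04 at the high dose, against 5.71, 5.44, 6.59, 5.09 and 6.54 at the medium dose. Medium-dose mice 3 and 5 and high-dose mouse 4 were the highest for both genes. The T and NK cell markers had a higher mean at the high dose in 2 of 15 members, with a median difference of -0.14, and the B cell markers in 3 of 7, with a median of -0.004. The sign of the B cell median turned under 10 of the alternatives, 7 of which left out a single mouse. No member of the lists in this paragraph had an unadjusted p under 0.05.

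**Figure D3:**
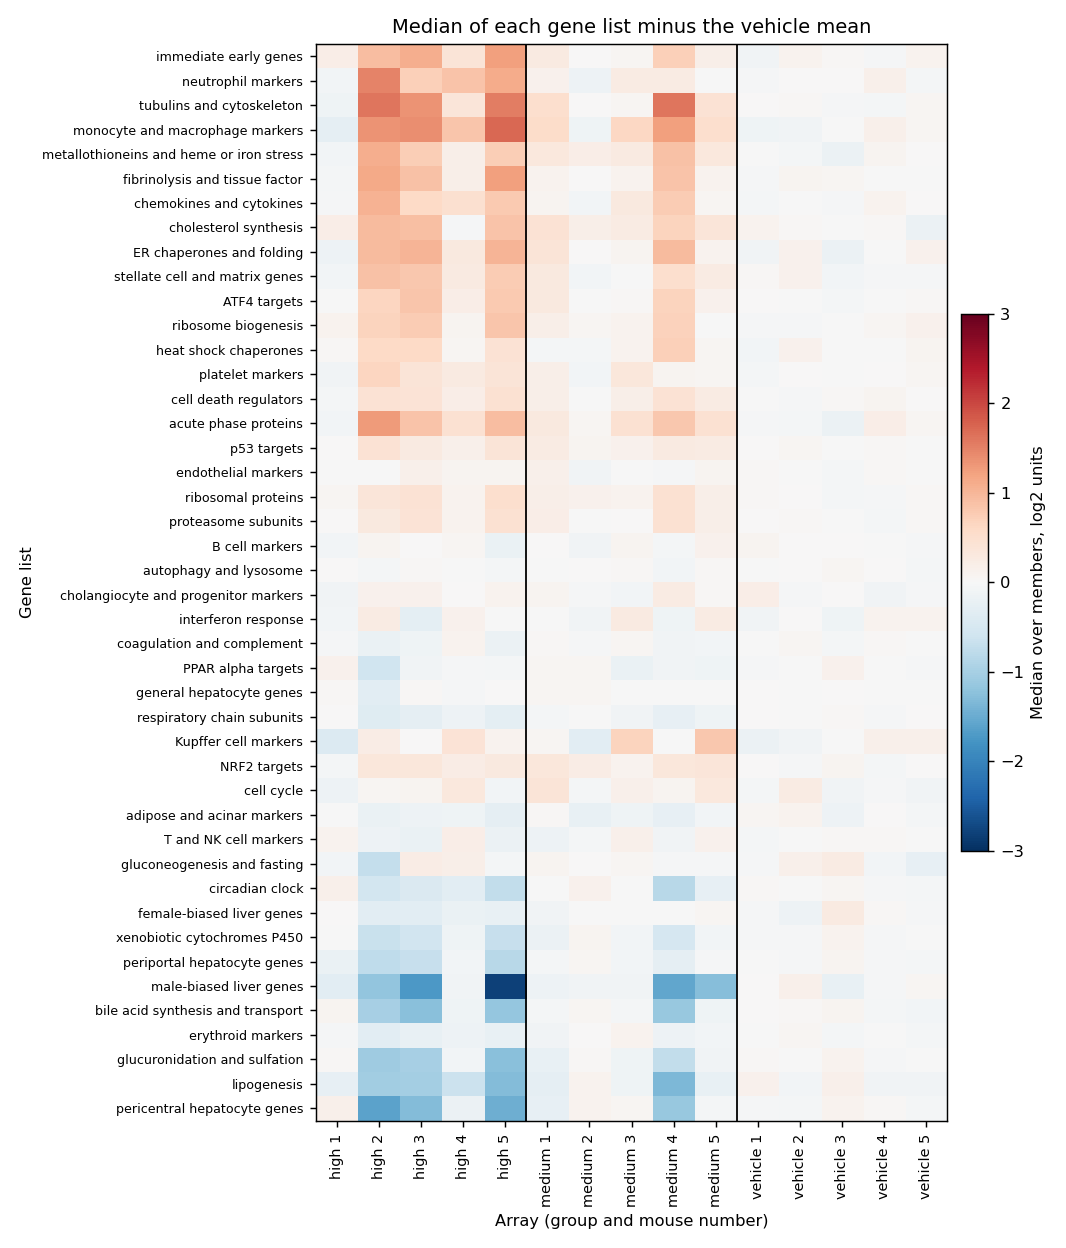
Each row is a gene list and each column a mouse (5 high-dose, 5 medium-dose and 5 vehicle, left to right); colour is the median over the list's members of the log2 signal minus the vehicle mean, and rows are ordered by the difference between the doses. The most strongly coloured columns are high-dose mice 2, 3 and 5 and medium-dose mouse 4, with a pericentral list median of -1.62, -1.30 and -1.48 in those high-dose mice, against -1.15 in medium-dose mouse 4.

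Acute phase proteins, which hepatocytes secrete on inflammatory signals, had a median change from vehicle of 0.63 at the high dose and 0.41 at the medium dose. Of 27 members, 21 had a higher mean at the high dose, but the median difference was only 0.10. Lcn2, an iron-trapping secreted protein, had 7.13, 12.76, 12.68, 11.51 and 13.06 at the high dose, against 9.54, 8.17, 11.95, 12.86 and 11.93 at the medium dose. High-dose mouse 1 and medium-dose mice 1 and 2 were within the vehicle range of 5.86 to 10.26, and the other 7 mice were above it. Saa1, serum amyloid A, differed by -0.22 ± 0.50 (SE) and was above the highest vehicle mouse in 3 mice of each dose.

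Structural genes of wounded or regenerating liver also varied widely within both doses. All 16 tubulin and cytoskeleton genes had a higher mean at the high dose, with a median difference of 0.45 and 0 members at an unadjusted p under 0.05. The list's median was -0.12, 1.61, 1.34, 0.37 and 1.54 relative to the vehicle mean at the high dose, against 0.51, 0.02, 0.07, 1.61 and 0.43 at the medium dose. Medium-dose mouse 4 was level with the highest high-dose mouse. Anxa2, a membrane-binding protein of spreading cells, had 7.50, 11.03, 11.18, 8.79 and 11.50 at the high dose, against 9.18, 7.70, 7.71, 10.87 and 8.72 at the medium dose. Timp1, an inhibitor of matrix proteases made by stellate cells, had 3.25, 8.32, 7.94, 5.09 and 8.38 at the high dose, against 5.50, 3.48, 3.36, 7.56 and 4.18 at the medium dose. Both were high in the same 3 high-dose mice and in medium-dose mouse 4. Sox9, a factor of bile duct and progenitor cells that injured hepatocytes can switch on, had 3.73, 6.64, 6.46, 4.22 and 6.67 at the high dose, against 4.10, 3.67, 3.99, 5.61 and 3.85 at the medium dose, a difference of 1.30 ± 0.65 (SE). For Sox9 the 3 high-dose mice exceeded medium-dose mouse 4. Sox9 had the largest difference of its list, the bile duct and progenitor markers. That list had a higher mean at the high dose in only 4 of 10 members, with a median difference of -0.015. The sign of this median turned under 5 of the alternatives. Emilin2, an extracellular matrix glycoprotein, differed by 1.02 ± 0.43 (SE).

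NRF2 targets, the antioxidant genes, showed no lean to the high dose. Of 22 NRF2 targets measured, 9 had a higher mean at the high dose and 13 a lower one, with a median difference of -0.08 whose sign turned with array weights. The median change from vehicle was 0.27 at the high dose and 0.23 at the medium dose. By mouse it was -0.05, 0.34, 0.33, 0.23 and 0.28 at the high dose, against 0.35, 0.23, 0.11, 0.34 and 0.37 at the medium dose. High-dose mouse 1 was the only treated mouse below the vehicle mean, and medium-dose mouse 4 was within the range of its group.

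Nqo1, the quinone reductase used as a readout of NRF2, was above every vehicle mouse in all 10 treated mice. It had 6.34, 6.53, 6.90, 7.03 and 6.86 at the high dose, against 6.66, 7.07, 6.71, 7.64 and 8.25 at the medium dose and a highest vehicle value of 6.08. The 2 highest mice were medium-dose mice 5 and 4, and the difference was -0.54 ± 0.29 (SE), or -0.29 without medium-dose mouse 5. Gsta2, a glutathione transferase, had 10.51, 9.58, 10.11, 10.06 and 10.31 at the high dose, against 10.18, 11.07, 10.06, 10.51 and 11.21 at the medium dose, again with its 2 highest values in medium-dose mice, mice 5 and 2. Srxn1, which repairs oxidised peroxiredoxins, had 6.01, 8.38, 8.82, 7.30 and 8.95 at the high dose, against 7.97, 6.68, 6.29, 9.08 and 7.86 at the medium dose. High-dose mouse 1 and medium-dose mouse 3 did not exceed the highest vehicle mouse, at 6.31, and the other 8 treated mice did. The difference was 0.32 ± 0.65 (SE).

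Enzymes of glutathione supply differed little. Gclc, the catalytic subunit of the first enzyme of glutathione synthesis, had a difference of 0.20 ± 0.13 (SE), and its regulatory subunit Gclm one of -0.09 ± 0.08 (SE). Txnrd1, thioredoxin reductase, was above every vehicle mouse at the high dose and in 3 medium-dose mice, with a difference of 0.15 ± 0.11 (SE). Osgin1, an oxidative stress growth inhibitor, was the NRF2 target with the smallest p, at 0.71 ± 0.30 (SE). Hmox1, heme oxygenase, responds to heme, AP-1 and NRF2 and had 5.62, 8.55, 8.39, 6.71 and 8.62 at the high dose, against 6.52, 5.52, 6.82, 7.94 and 6.45 at the medium dose. It was highest in high-dose mice 2, 3 and 5 and in medium-dose mouse 4.

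Psat1, an enzyme of serine synthesis and a target of ATF4, had nearly equal means and very unequal mice. It had 3.53, 7.61, 7.85, 6.25 and 7.93 at the high dose, against 7.51, 5.75, 4.40, 8.23 and 7.20 at the medium dose and vehicle values between 2.84 and 3.33. All 10 treated mice were above every vehicle mouse, high-dose mouse 1 by the least. Medium-dose mouse 2, whose component score lay at the vehicle level, had 5.75, which is over 2 log2 units above vehicle. The difference between the doses was 0.02 ± 0.95 (SE), and its 95% confidence interval, -2.09 to 2.12, covers a change of over 2 log2 units either way.

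ATF4 targets as a list leaned to the high dose, with 23 of 29 means higher and a median difference of 0.26. Fgf21, a hepatic stress hormone, was the member with the smallest p among those higher, with 3.07, 3.67, 4.42, 4.12 and 3.89 at the high dose, against 3.67, 3.11, 3.03, 3.63 and 2.65 at the medium dose and a difference of 0.62 ± 0.27 (SE). Stc2, a secreted glycoprotein of the same list, went the other way at -0.18 ± 0.07 (SE), with values near the bottom of the scale. Fgf21 was dim too, with means of 3.83 and 3.22 at the high and medium dose, below the array medians of 4.41 to 4.57. Atf3, a stress factor shared by the immediate early and ATF4 responses, had 4.16, 7.42, 7.12, 4.55 and 7.43 at the high dose, against 5.23, 4.22, 4.12, 7.93 and 5.29 at the medium dose, and its highest mouse was medium-dose mouse 4. Ddit3, the factor CHOP of the unfolded protein response, had 6.14, 7.66, 7.11, 6.33 and 7.37 at the high dose, against 6.40, 6.00, 6.42, 8.03 and 6.15 at the medium dose, again highest in medium-dose mouse 4. Of 20 chaperones and folding enzymes of the endoplasmic reticulum, 18 had a higher mean at the high dose, with a median difference of 0.28. Hsp90b1, its abundant chaperone GRP94, differed by 0.25 ± 0.16 (SE).

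Other stress genes varied widely within both doses. Hspa1a, an inducible heat shock protein, had 3.30, 7.81, 8.48, 4.13 and 8.01 at the high dose, against 5.47, 3.37, 3.38, 8.45 and 4.78 at the medium dose. Cdkn1a, the cell cycle inhibitor p21, had 3.54, 8.13, 8.38, 5.12 and 8.45 at the high dose, against 5.16, 3.85, 3.99, 8.08 and 6.16 at the medium dose. In both, medium-dose mouse 4 lay with high-dose mice 2, 3 and 5. Of 22 p53 targets, 15 had a higher mean at the high dose, with a median difference of 0.09, and 0 had an unadjusted p under 0.05. Btg2, an antiproliferative gene of that list, differed by 0.70 ± 0.43 (SE). Mt1, a metal-binding protein, had 10.94, 13.51, 13.82, 11.23 and 13.83 at the high dose, against 12.13, 10.24, 12.24, 13.65 and 12.63 at the medium dose. It differed by 0.49 ± 0.75 (SE) and Mt2, its relative, by 0.61 ± 1.09 (SE), and without medium-dose mouse 2 these differences were 0.002 and 0.03.

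**Figure D4:**
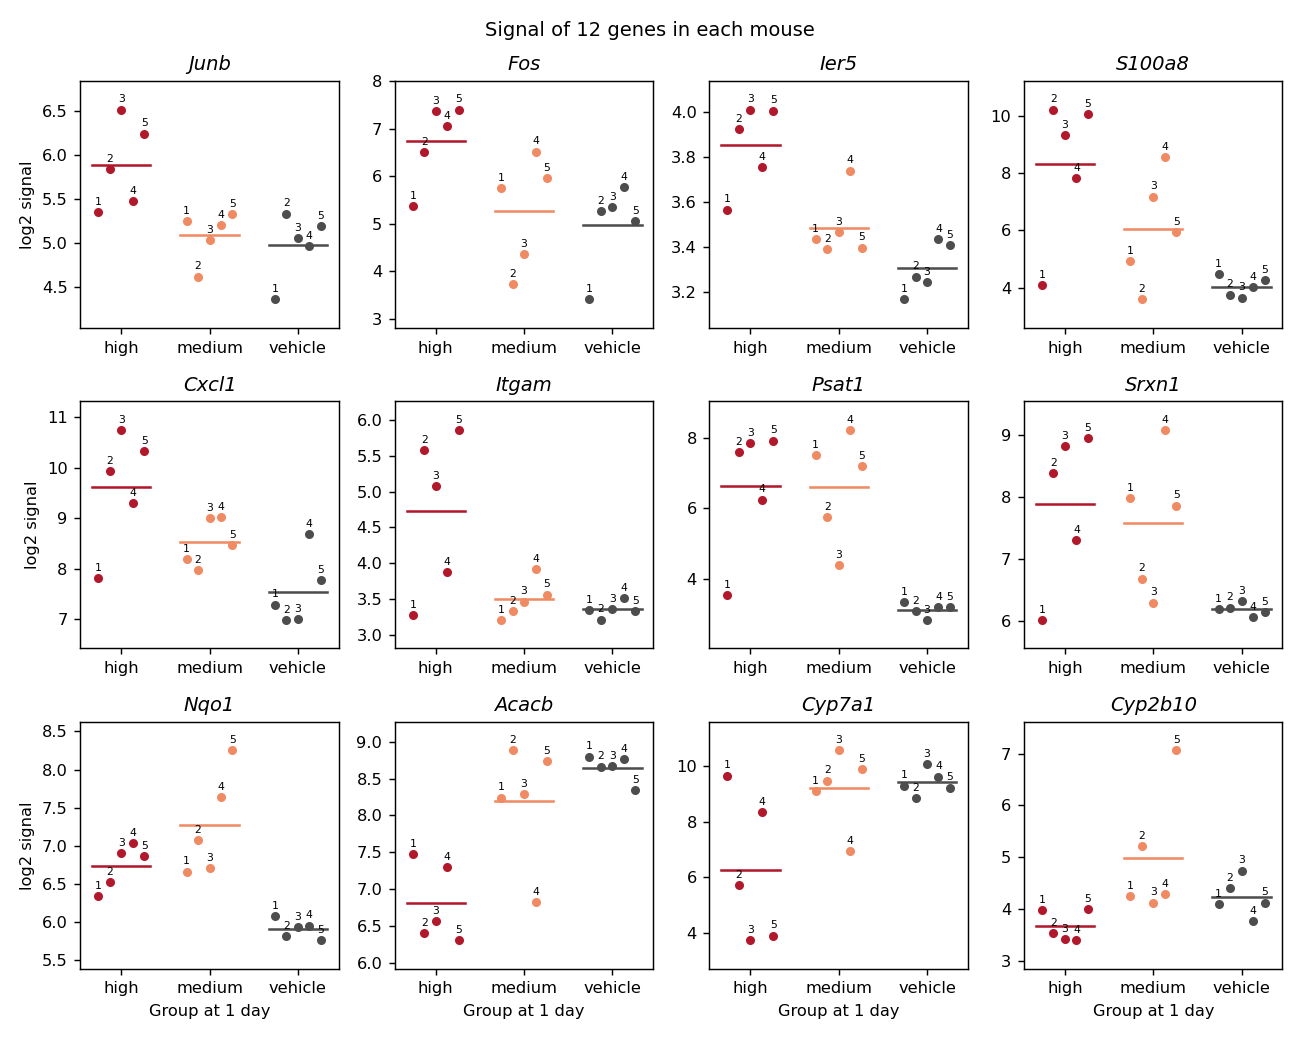
Log2 signal (vertical axis) of 12 genes in each high-dose, medium-dose and vehicle mouse (horizontal axis), with mice numbered within their group and bars at the group mean. Junb and Cyp2b10 show no overlap between the doses, Psat1 and Srxn1 have like means, and Nqo1 is above vehicle in all 10 treated mice.

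Genes of fatty acid synthesis had lower means at the high dose without exception. All 20 measured members had a lower mean at the high dose, with a median difference of -0.50, and 4 had an unadjusted p under 0.05, all lower (background 2.7%). Acacb, the mitochondrial acetyl-CoA carboxylase whose malonyl-CoA restrains fat oxidation, had 7.48, 6.40, 6.56, 7.30 and 6.30 at the high dose, against 8.24, 8.88, 8.29, 6.83 and 8.74 at the medium dose. All 5 high-dose mice were below the lowest vehicle mouse, at 8.35, and only medium-dose mouse 4 reached into their range. The difference was -1.39 ± 0.39 (SE), which is 2.61-fold lower at the high dose. High-dose mouse 1, which had 0.191% of probe sets over 2-fold from vehicle, had Acacb at 7.48, more than 1 log2 unit below the vehicle mean of 8.65.

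Acaca, the cytosolic carboxylase that feeds fatty acid synthesis, had 7.72, 7.20, 7.24, 7.57 and 6.91 at the high dose, against 8.10, 8.14, 7.99, 7.12 and 7.77 at the medium dose, a difference of -0.50 ± 0.21 (SE). High-dose mice 1 and 4 were below medium-dose mice 1, 2, 3 and 5, as they were for Acacb. Acly, which makes acetyl-CoA from citrate, differed by -0.41 ± 0.17 (SE), and Elovl5, an elongase of polyunsaturated fatty acids, by -0.44 ± 0.16 (SE). Thrsp, a lipogenic regulator driven by thyroid hormone and carbohydrate, had 11.72, 9.32, 8.99, 10.66 and 8.73 at the high dose, against 12.09, 12.54, 12.37, 9.05 and 11.58 at the medium dose, with medium-dose mouse 4 among the lowest.

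Bile acid genes leaned the same way. Of 24 genes of bile acid synthesis and transport, 21 had a lower mean at the high dose, with a median difference of -0.40. Cyp7a1, which catalyses the first and limiting step from cholesterol to bile acids, had the largest difference of all probe sets. It had 9.66, 5.71, 3.74, 8.35 and 3.91 at the high dose, against 9.11, 9.48, 10.56, 6.94 and 9.90 at the medium dose. High-dose mice 2, 3 and 5 were below every other treated mouse, and high-dose mouse 1 was within the vehicle range of 8.84 to 10.07. The difference was -2.92 ± 1.17 (SE). Akr1d1, the reductase that shapes the steroid ring of bile acids, differed by -1.44 ± 0.62 (SE), and Cyp8b1, which sets the share of cholic acid, by -1.10 ± 0.50 (SE). Cyp8b1 was below the lowest vehicle mouse in all 10 treated mice.

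Pericentral hepatocyte genes, the zone that oxidises APAP, had a lower mean at the high dose in 19 of 20 members, with a median difference of -0.63, the most negative of the 44 lists. Periportal genes had a lower mean in 11 of 13, with a median of -0.25, and general hepatocyte genes in 12 of 15, with a median of -0.05, or 0 under quantile normalization. Aldh1b1, a mitochondrial aldehyde dehydrogenase, was the periportal member with the smallest p, at -1.01 ± 0.31 (SE). The pericentral list median was 0.16, -1.62, -1.30, -0.19 and -1.48 from the vehicle mean at the high dose, against -0.25, 0.11, 0.06, -1.15 and -0.07 at the medium dose. Glul, glutamine synthetase of the cells next to the central vein, had 11.71, 9.41, 8.65, 11.27 and 9.17 at the high dose, against 11.08, 11.66, 11.63, 9.01 and 11.34 at the medium dose, and Oat, an aminotransferase of the same cells, had 12.14, 9.56, 10.21, 11.87 and 10.00 at the high dose, against 11.79, 12.32, 12.31, 10.24 and 12.16 at the medium dose. Glul and Oat were low in high-dose mice 2, 3 and 5 and in medium-dose mouse 4 and nearer to vehicle in the other 6 mice.

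Enzymes that activate APAP also had lower means at the high dose. Cyp2e1, the main one, had 13.76, 12.93, 13.27, 13.53 and 13.10 at the high dose, against 13.67, 13.71, 13.60, 13.28 and 13.52 at the medium dose, a difference of -0.24 ± 0.15 (SE). Cyp1a2 had 12.44, 11.25, 11.44, 12.22 and 10.98 at the high dose, against 12.19, 12.66, 12.37, 11.81 and 12.55 at the medium dose, a difference of -0.65 ± 0.28 (SE), and Cyp3a11 differed by -0.22 ± 0.15 (SE). Cyp2e1 and Cyp3a11 lie near the top of the scale, where array signal is compressed, so their differences can be understated. Of 28 xenobiotic P450 genes, 24 had a lower mean at the high dose, with a median of -0.24. Of 18 genes of glucuronidation and sulfation, 15 did, with a median of -0.43. Cyp2c55, an inducible P450, differed by -1.63 ± 0.73 (SE), and Fmo1, a flavin monooxygenase, by -1.01 ± 0.39 (SE).

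Cyp2b10, the P450 induced through the receptor CAR, was 1 of the 62 probe sets (0.358%) with all high-dose mice below all medium-dose mice. It had 3.98, 3.53, 3.41, 3.39 and 4.00 at the high dose, against 4.25, 5.22, 4.12, 4.29 and 7.06 at the medium dose and vehicle values between 3.76 and 4.74. The difference of -1.33 ± 0.50 (SE) rested largely on medium-dose mice 5 and 2, the 2 that exceeded all vehicle mice. High-dose mice 2, 3 and 4 were below all vehicle mice. Ugt2b37, a glucuronosyltransferase, was above every vehicle mouse in all 5 medium-dose mice, with 5.16, 7.78, 7.33, 8.51 and 7.02 at the high dose, against 8.59, 7.78, 8.07, 8.39 and 8.23 at the medium dose.

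Male-biased liver genes, which depend on the pulses of growth hormone, had a lower mean at the high dose in 11 of 12 members, with a median difference of -0.38. Hsd3b5, a steroid dehydrogenase of male liver, had 11.79, 7.88, 6.48, 11.91 and 4.85 at the high dose, against 12.01, 11.78, 11.79, 7.96 and 8.47 at the medium dose. Medium-dose mouse 5 was nearly as low as medium-dose mouse 4 for this gene, while its component score was near 0. The difference was -1.82 ± 1.47 (SE).

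Some other genes without overlap between the doses were taken from the 6 with the largest difference in each direction. Ebpl, a homologue of the sterol isomerase EBP, had 11.53, 11.14, 11.35, 11.62 and 11.17 at the high dose, against 11.73, 11.82, 11.84, 11.82 and 12.24 at the medium dose, a difference of -0.53 ± 0.12 (SE). All 5 medium-dose mice were above the highest vehicle mouse, at 11.62, and all 5 high-dose mice were at or below it. Slc44a1, a choline transporter, had 7.08, 6.67, 6.61, 6.99 and 6.57 at the high dose, against 7.18, 7.25, 7.41, 7.11 and 7.88 at the medium dose, a difference of -0.58 ± 0.16 (SE), with all high-dose mice below the vehicle range. Cenpm, a centromere protein of dividing cells, differed by -0.70 ± 0.19 (SE), and Ccne2, the cyclin of the start of DNA synthesis, by -0.46 ± 0.13 (SE). Upward, Rsad1, a radical SAM domain protein, differed by 0.33 ± 0.10 (SE) and Obp2a, an odorant-binding protein, by 0.71 ± 0.15 (SE). These genes are 6 of the 88 probe sets without overlap (0.508%), a share that regrouping alone would reach. Ebpl, Slc44a1 and Rsad1 were among the 19 probe sets (0.11%) that passed when all 69 arrays shared the spread. Their adjusted p-values from limma were 0.0039, 0.0240 and 0.0240.

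Genes of cell growth and division gave small differences. Of 30 cell cycle genes, 23 had a lower mean at the high dose, with a median of -0.10. An unadjusted p under 0.05 was seen in 3, all lower (background 2.7%). The list's median change from vehicle was -0.04 at the high dose and 0.24 at the medium dose. Ccnd1, the cyclin that starts the cycle, was above every vehicle mouse in all 5 high-dose mice and in 2 medium-dose mice, with a difference of 0.25 ± 0.29 (SE). Of 25 ribosome biogenesis genes, 23 had a higher mean at the high dose, with a median of 0.26. Polr1b, a subunit of RNA polymerase I, is another of the 26 probe sets (0.15%) with all high-dose mice above all medium-dose mice. It had 5.44, 5.36, 5.22, 5.57 and 5.28 at the high dose, against 4.94, 5.16, 5.03, 5.20 and 5.17 at the medium dose. Its difference was 0.27 ± 0.08 (SE).

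Part of these leans moved with the split between livers. When the component score of each array was added to the fit, an alternative chosen after the data were seen, 0 probe sets were called by limma and 903 had an unadjusted p under 0.05. The median difference of immediate early genes was then 0.20, of neutrophil markers 0.25, of lipogenesis -0.22, of NRF2 targets -0.16 and of cell cycle genes -0.19. It was -0.01 for pericentral genes, -0.02 for bile acid genes, -0.05 for tubulins and cytoskeleton and -0.09 for monocyte and macrophage markers, so for these last 2 lists the sign turned. It also turned for ATF4 targets (-0.02), chaperones of the endoplasmic reticulum (-0.05), p53 targets (-0.02), acute phase proteins (-0.07), endothelial markers (-0.002) and male-biased genes (0.12). The score is made from the same genes, so these values describe what the lists hold beside it and test nothing. Without high-dose mouse 1, 0 probe sets were called, the smallest adjusted p was 0.188 and 2460 had an unadjusted p under 0.05. Without medium-dose mouse 4, these values were 0, 0.248 and 2091.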

How the data were processed

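RNA of mouse liver was hybridised to Affymetrix 3'IVT arrays. The submitters' processing notes name RMA, which corrects background, normalizes quantiles and summarises probes, and the deposited log2 values (1.87 to 14.34) were used as they stand. Of 17306 probe sets, 16464 carried 1 gene symbol, 842 none and 0 several; those without a symbol were tested and not named.

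The 10 arrays were fitted with limma 3.58.1 in R 4.3.3, with 1 mean per dose (8 residual and 2.38 prior degrees of freedom), Benjamini-Hochberg adjustment over all probe sets and a threshold of 0.05. Array number limits the precision. Whether mice came from separate cages or days is not given in the labels. The p-values set a difference against the spread between these mice, so a cage or day effect shared within a dose would not be counted. The script was tested on simulated data. Component scores were compared by an exact permutation test. Correlations between the 10 arrays were 0.964 to 0.997 and array medians 4.41 to 4.57.

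The members, the 44 gene lists and the naming rule were chosen with earlier results of these data known. The rule named up to 12 genes in each direction with the smallest unadjusted p among those differing by at least 1 log2 unit with a mean of at least 5 in the higher group, up to 4 members of each list, up to 6 per direction without overlap between doses, and a set of known APAP response genes. The text describes 71 of the genes so named, a choice that the rule did not set. Cadm4, Lmcd1, Ces1g, Tpte and Bag3 are among those left out. Plots used matplotlib 3.10.9. Alternatives changed the arrays in the fit, array weights, the prior, normalization, a filter on dim genes, title numbers and single arrays.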

Additional observations from a re-analysis of the deposited data

Results flagged for a closer look

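Of the groups of 5 arrays examined for the scores and genes named above, 18 (12.2%) held an array far from the other 4 of its group (Dixon's test at the 95% level), where chance gives about 1 in 20 groups. The groups are not independent, because the same arrays recur.

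Low-dose mouse 1 had a component score of 46.3, against -22.0 to -18.5 in the other 4 low-dose mice. Medium-dose mouse 4 had 6.83% of probe sets over 2-fold from vehicle, against 0.173% to 1.18% in the other medium-dose mice.

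The same medium-dose mouse 4 stood above its group in Ier5 (3.74 log2 units), Ier3 (7.17), Ddit3 (8.03), Sox9 (5.61) and Emilin2 (5.67). It stood below its group in Thrsp (9.05), Akr1d1 (8.28), Cyp8b1 (9.07), Fmo1 (10.01), Glul (9.01) and Oat (10.24).

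High-dose mouse 1 stood below the other 4 high-dose mice in Ppbp (3.34), Lcn2 (7.13) and Saa1 (10.81). High-dose mouse 2 stood below its group in Alb (13.83, against 14.21 to 14.29). Medium-dose mouse 5 stood above its group in Ebpl (12.24, against 11.73 to 11.84).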

How the results depend on the processing

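The count of 0 called genes held under the alternatives tried except 2. With all 69 arrays sharing 1 spread, 19 (0.11%) were called by limma, and with array weights 2778 (16.1%). These weights ranged from 0.304 for high-dose mouse 1 to 2.24 for high-dose mouse 3. The larger count rests on weights estimated from the same genes. Leaving out 1 array gave 0 calls each time, with 413 to 2460 probe sets at an unadjusted p under 0.05. The difference in component score was 17.6 to 39.1 without single arrays (exact p 0.0635 to 0.421), and 24.3 to 26.8 with the component taken over other arrays or brighter genes. Of 1414 recomputed differences of the 71 genes described, 25 had the other sign. The array weights put 47 of these genes past the threshold, against 16.1% of all probe sets, and all 69 arrays 6, against 0.11%. Many of the 71 were named for a small p or a large difference in this same contrast, so these counts test nothing. Of 748 recomputed list medians, 44 had the other sign, and 13 moved by more than the spread between mice. Within title numbers up to 190, and with numbers above 190 as a block, 0 genes were called, with 818 and 687 at an unadjusted p under 0.05; what the numbers mean is not stated. No paired analysis was possible because each mouse was measured once and the replicate numbers follow record order.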

Other observations

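Genes of fibrinolysis and tissue factor had a higher mean at the high than at the medium dose in 9 of 12 members (median difference 0.38). Metallothioneins and heme or iron stress genes did so in 7 of 11 members (0.39). Cholesterol synthesis, which makes the substrate of bile acids, had a higher mean in 9 of 13 members (0.31), while all 20 lipogenesis genes had a lower one. In the 3 lists with mostly higher means, 0 members were higher (background 1.58%) and 1 was lower (background 2.7%) at an unadjusted p under 0.05. It was Alas1, the first enzyme of heme synthesis, which differed by -0.78 ± 0.31 (SE).

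Proteasome subunits had a higher mean at the high dose in 20 of 24 members, and respiratory chain subunits a lower one in 23 of 26, with medians of only 0.06 and -0.07. With the first component as a covariate, an alternative chosen after the data were seen, the sign turned for metallothioneins and heme or iron stress genes (-0.04), cholesterol synthesis (-0.05) and proteasome subunits (-0.06). Circadian clock genes had a lower mean in 14 of 18 members (-0.21). Interferon response genes had a median of -0.03 and PPAR alpha targets one of -0.05, and the sign of both turned when single mice were left out.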
